A study of Mus musculus with 16 samples.

Results

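The diet by genotype interaction is the change that loss of Ift88 made to a gene on an enriched folic acid diet, minus the change it made on a moderate diet. It was computed for every gene from all 16 of the 16 RNA sequencing libraries of the series, since each library belongs to 1 corner of the 2 by 2 design. The tissue was mouse embryo head at embryonic day 8.5, cut between the first branchial arch and a level above the otic vesicle. The 4 groups of 4 libraries were wild type on the moderate diet (2 ppm folic acid), homozygous IFT88-null on the moderate diet, wild type on the enriched diet (10 ppm) and homozygous IFT88-null on the enriched diet, all from the third generation on its diet. The labels name no strain, litter or deleted exons, so each p-value reflects only how far these libraries varied, and a change of diet here is a change over 3 generations in families that may differ in other ways. Counts assigned to genes ran from 19249433 to 44267434 per library.

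Ift88 encodes a subunit of the intraflagellar transport complex, the train that carries cargo along the cilium. Vertebrate cells pass Hedgehog signals through the primary cilium, so embryos without this complex do not pattern the ventral neural tube normally. Folic acid feeds one-carbon metabolism, which supplies nucleotides and methyl groups, and it is known for its part in neural tube closure. The same number is also the diet effect in mutants minus the diet effect in wild type.

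Ift88 itself was the check of the labels. It stood at 19.9, 9.30, 20.9 and 20.7 CPM (read counts scaled to library size) in moderate diet wild type replicates 1 to 4, and at 3.35, 6.44, 2.01 and 3.44 CPM in the mutants on that diet. On the enriched diet the wild type libraries held 18.98, 20.7, 17.9 and 20.8 CPM, and the mutants 2.99, 8.61, 2.86 and 5.25 CPM. Mutant and wild type libraries did not overlap on either diet, although moderate diet wild type replicate 2 reached 45.3% of the mean of the other 3 of its group. Enriched diet mutant replicate 2 was the highest mutant, at 8.61 CPM beside the 9.30 CPM of that wild type library. The 2 genotype effects differed by 0.24 ± 0.48 on the log2 scale (SE, edgeR quasi-likelihood test, unadjusted p = 0.626). The sex given in the labels disagreed with Xist and Y-linked counts for 3 libraries, called sex-discordant here. Moderate diet wild type held 1 of them (its replicate 2), and the mutants of that diet held the others (their replicates 1 and 2). Moderate diet mutant replicate 3 stood apart from its group in many of the genes that follow. Values without these 4 libraries, or some of them, are given for part of the counts and p described, and others changed too. Without the 3 sex-discordant libraries the moderate diet mutants are replicates 3 and 4, and without all 4 libraries replicate 4 alone. A gene can then lose a small p for lack of libraries alone. The genotype of moderate diet wild type replicate 2 and the identity of the 3 sex-discordant libraries are therefore in doubt, and were not tested by other means.

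No gene passed the threshold for the interaction. Of 14514 genes tested, 0 (0%) had a Benjamini-Hochberg adjusted p under 0.05 in the edgeR quasi-likelihood test, and the smallest adjusted p was 0.645. Without adjustment, 1064 genes (7.33%) had a p under 0.05. Of these, 339 (2.34%) were higher, meaning that the genotype effect was more positive on the enriched diet, and 725 (5%) were lower. DESeq2 and limma-voom also called 0 genes, with 1068 and 1065 at an unadjusted p under 0.05. The 0 held in all 29 alternative settings. With library weights, limma-voom called 0 and had 2393 (16.5%) at an unadjusted p under 0.05. Leaving out 1 library at a time also moved the unadjusted count: it was 513 without enriched diet wild type replicate 3, 586 without replicate 1 and 1636 without replicate 4 of that group, 2017 without moderate diet mutant replicate 4 and 647 without replicate 2, 693 without moderate diet wild type replicate 3, and 675 and 1760 without enriched diet mutant replicates 2 and 3. It was 318 of 14455 genes (2.20%) without the 3 sex-discordant libraries.

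The precision of the comparison sets what a 0 can mean. The median standard error of the interaction was 0.17 on the log2 scale, and the median half-width of its 95% interval was 0.36. Intervals of 11542 genes (79.5%) lay wholly between -1 and 1, so a 2-fold difference between the 2 genotype effects lay outside them. Only 6269 genes (43.2%) had an interval wholly between -0.5 and 0.5. For the rest, the interval did not exclude a difference of that size. The spread differed between groups: the median SD of log2 CPM was 0.113 in moderate diet wild type, 0.171 in moderate diet mutants, 0.1601 in enriched diet wild type and 0.195 in enriched diet mutants.

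The diet alone changed no gene past the threshold in either genotype. In wild type 0 genes (0%) and in mutants 0 genes (0%) passed by edgeR, with 519 and 2100 at an unadjusted p under 0.05, while DESeq2 called 1 and 8. Without moderate diet mutant replicate 3 the unadjusted counts were 610 in wild type and 994 in mutants. With library weights in limma-voom they were 2679 in wild type and 2180 in mutants. In the reported fit, the genes behind the unadjusted interaction count moved mostly in the mutants. Among the 725 lower genes, the median diet effect was -0.24 in mutants and 0.12 in wild type, and 462 against 74 had an unadjusted p under 0.05 for the diet. Among the 339 higher genes the medians were 0.30 in mutants and -0.17 in wild type, with 176 against 58. The rule that picks these genes fixes the sign of the difference, so these medians only describe where it came from. The lower genes had a median level of 56.2 CPM and the higher genes one of 15.0 CPM, against 24.4 CPM over all genes tested.

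Genes called on both diets moved in 1 direction. On the moderate diet 1097 genes (7.56%) passed the threshold, 688 up (4.74%) and 409 down (2.82%), and on the enriched diet 4087 (28.2%), 1925 up (13.3%) and 2162 down (14.9%). The moderate count was 2083 without moderate diet mutant replicate 3, 606, 628 and 630 without replicates 1, 2 and 4 of that group, and 698, 708 and 677 without moderate diet wild type replicates 1, 2 and 3, and it was 116 without the 3 sex-discordant libraries. With library weights in limma-voom the counts were 4479 on the moderate and 5286 on the enriched diet. The enriched count was 2664 without enriched diet wild type replicate 3. In all, 921 genes passed on both diets, and all 921 had the same direction. Of all genes tested, 74.0% had the same sign on both diets. Across the 14514 genes, the 2 effects had a Pearson correlation of 0.743 and a Spearman correlation of 0.652, and with no filter on low counts the Pearson correlation was 0.322. The 2 effects share no library, and genes are not independent points. Of the 3166 genes that passed on the enriched diet alone, 2963 had the same sign on the moderate diet, 731 (23.1%) had an unadjusted interaction p under 0.05, and 0 passed the interaction threshold. Thus the larger number of calls on the enriched diet is not shown to be a difference between the diets for any single gene.

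**Figure D1:**
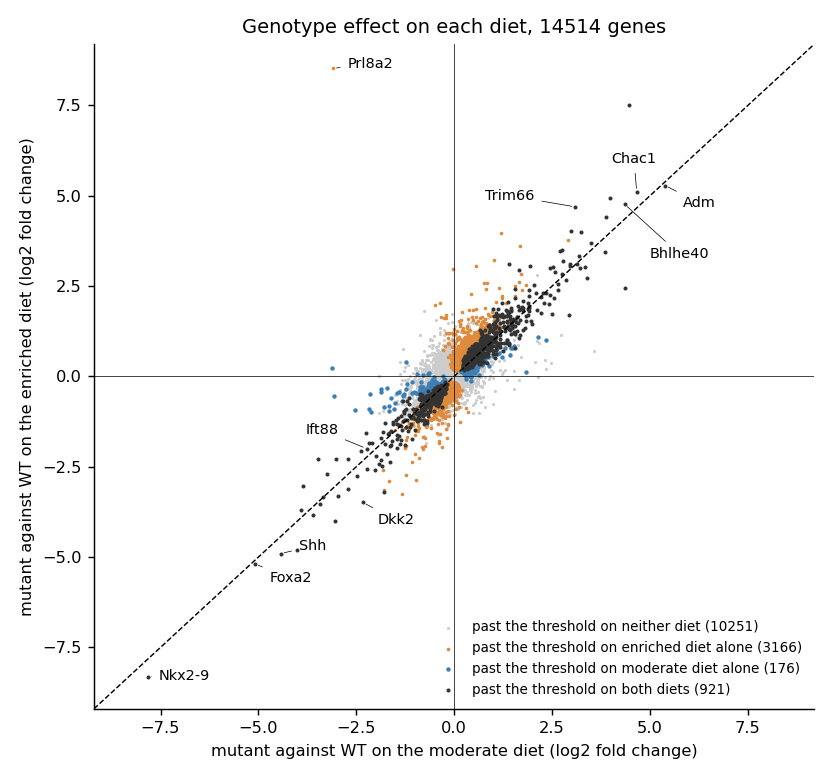
Log2 fold change of mutant against wild type on the moderate diet (x axis) and on the enriched diet (y axis) for the 14514 genes tested, each a point coloured by the diets on which it passed an adjusted p of 0.05; the dashed line marks equal effects. The 921 genes that passed on both diets lie along that line, from Nkx2-9 at the bottom left to Adm at the top right, while Prl8a2 at the top left rests on 1 library.

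The size of the effects differed by how the genes were chosen. Genes that rose in mutants on the enriched diet had a median log2 fold change of 0.53 there and 0.31 on the moderate diet, and genes that fell had -0.40 and -0.18. Without moderate diet mutant replicate 3, the moderate medians of these genes were 0.38 and -0.22. Genes chosen on the moderate diet gave the other picture: those that rose there had medians of 0.60 on the moderate and 0.64 on the enriched diet, and those that fell had -0.65 and -0.56. A list chosen on 1 diet tends to look larger on that diet, so neither pair is a test. Among the 219 genes over 2-fold and past the threshold on both diets, 137 had the larger effect on the enriched diet, and the median sizes were 1.63 (moderate) and 1.75 (enriched).

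Shh and several other genes of the ventral neural tube fell in mutants on both diets. The 30 genes described first were chosen because earlier results put them among the largest genotype effects. Their effects on each diet are thus given as a description and the interaction is what is compared. The 95% interval of the interaction lay wholly between -1 and 1 in 3 of the 30, beside 79.5% of all genes tested. Shh, the Hedgehog ligand of the notochord and floor plate, lies on chromosome 5 (28456815 to 28467256, mm10). It measured 33.1, 34.1, 33.9 and 35.3 CPM in moderate diet wild type, 1.401, 0.902, 2.18 and 1.72 CPM in the mutants, 33.3, 30.5, 35.4 and 36.5 CPM in enriched diet wild type and 1.34, 1.30, 0.742 and 1.02 CPM in the mutants. Wild type levels overlapped between the diets, and so did the mutant levels. The effects were -4.43 on the moderate and -4.91 on the enriched diet, and their difference was -0.47 ± 0.26 (95% interval -1.02 to 0.07, edgeR unadjusted p = 0.0849). Without the 3 sex-discordant libraries it was -0.78 (unadjusted p = 0.00439), and without moderate diet mutant replicate 3 it was -0.23.

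Targets of Shh in the ventral neural tube followed. Foxa2, the floor plate transcription factor, had effects of -5.09 and -5.19 and a difference of -0.10 ± 0.34 (edgeR unadjusted p = 0.768). Nkx2-9, a homeobox gene beside the floor plate, was nearly absent from all 8 mutants, at most 0.123 CPM, so its difference of -0.50 ± 0.71 carries little information. Nkx2-2, which marks the ventral progenitors next to the floor plate, was the 1 gene of the 30 with an unadjusted p under 0.05. Its level was 0.342, 0.615, 0.344 and 0.360 CPM in mutants on the moderate diet, and on the enriched diet 0.181, 0.0865, 0.424 and 0.271 CPM, against 3.07 to 3.98 and 3.26 to 4.12 CPM in wild type. The mutant groups overlapped, through enriched diet mutant replicate 3. Its difference was -0.97 ± 0.40 (95% interval -1.82 to -0.12, edgeR unadjusted p = 0.0270, adjusted p = 0.645), and -0.72 without the 3 sex-discordant libraries (unadjusted p = 0.152). Gli1, the transcriptional readout of the pathway, differed by 0.25 ± 0.37, and Ptch1, the Hedgehog receptor that is also a target, by 0.13 ± 0.18. In Gli1, replicate 4 was the highest library of both enriched groups, at 39.6 CPM in wild type and 23.0 CPM in mutants.

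Lists of the same biology were counted next. In the list of 19 floor plate and ventral neural tube members, 10 fell and 2 rose on the moderate diet and 12 fell and 0 rose on the enriched diet. Of all genes tested, 2.82% fell and 4.74% rose on the moderate diet, and 14.9% fell and 13.3% rose on the enriched diet. The median interaction of the 19 was -0.18. At an unadjusted p under 0.05, 1 gene was lower and 0 higher, where 5% of all genes were lower and 2.34% higher. The 20 Hedgehog-induced genes had a median of -0.05, with 2 higher and 2 lower. Foxd1, a forkhead gene of the head mesenchyme and forebrain, differed by -0.44 ± 0.17 (edgeR unadjusted p = 0.0187, or 0.145 without the 3 sex-discordant libraries) and Cdon, a Shh co-receptor, differed by 0.35 ± 0.15 (unadjusted p = 0.0313). Among 24 pathway components, the protein kinase A subunit Prkaca (-0.26 ± 0.10, unadjusted p = 0.0265) and the signal transducer Smo (-0.23 ± 0.11, unadjusted p = 0.0474) were lower and 0 were higher. Without the 3 sex-discordant libraries, or without moderate diet mutant replicate 3, 0 of the 24 were lower at that level.

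The Wnt antagonist Dkk2 shows how 1 library can carry a difference. It measured 4.95, 5.62, 6.10 and 6.84 CPM in moderate diet wild type and 0.581, 0.287, 3.15 and 0.4001 CPM in the mutants, so that replicate 3 held several times the level of the other 3. Enriched diet wild type held 5.51, 4.22, 5.03 and 7.08 CPM, and the mutants 0.544, 0.649, 0.477 and 0.271 CPM. The difference was -1.15 ± 0.72 (edgeR unadjusted p = 0.125) with that library and 0.29 without it. The mesenchymal forkhead genes Foxf2 (-0.28 ± 0.33) and Foxl1 (-0.22 ± 0.46) and the retinaldehyde dehydrogenase Aldh1a1 (-0.41 ± 0.38) had intervals that included 0.

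Genes of the response to low oxygen rose strongly in mutants on both diets. Of 51 hypoxia and glycolysis genes, 46 rose and 1 fell on the moderate diet, and again 46 rose and 1 fell on the enriched diet. Of all genes tested, 4.74% rose and 2.82% fell on the moderate diet, and 13.3% rose and 14.9% fell on the enriched diet. The median log2 fold changes of the 51 were 1.23 and 1.23, and their median interaction was -0.02. Adm, the vasodilator peptide adrenomedullin, measured 32.0, 32.9, 4.84 and 34.4 CPM in moderate diet mutants and 48.0, 39.2, 24.2 and 38.2 CPM in enriched diet mutants, with all 8 wild type libraries at or below 1.20 CPM. Its difference was -0.10 ± 0.72 (edgeR unadjusted p = 0.886). Bhlhe40, a clock-linked repressor, measured 41.1, 47.4, 5.24 and 57.2 CPM in moderate diet mutants and 69.1, 73.5, 30.2 and 65.9 CPM in enriched diet mutants. It differed by 0.41 ± 0.76. Replicate 3 was the lowest mutant on each diet in both genes, and the moderate one was far lower. These numbers do not mark the same embryo or litter.

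Glycolytic enzymes were the hypoxia genes with the smallest interaction p. Tpi1, triosephosphate isomerase, measured 630, 674, 555 and 602 CPM in moderate diet wild type and 1365, 1451, 1134 and 1244 CPM in the mutants. On the enriched diet it measured 985, 748, 737 and 796 CPM in wild type and 1362, 1278, 1360 and 1020 CPM in mutants. Wild type was higher on the enriched diet in every library and mutants overlapped. The difference was -0.46 ± 0.16 (edgeR unadjusted p = 0.00965, adjusted p = 0.645). Ldha, lactate dehydrogenase A, rose by 0.84 on the moderate and 0.36 on the enriched diet, a difference of -0.48 ± 0.17 (unadjusted p = 0.0105). Pfkl, Pgam1 and Pkm, 3 further enzymes of glycolysis, were lower by 0.29, 0.36 and 0.26. With Tpi1 and Ldha they make up the 5 of 51 lower at an unadjusted p under 0.05, where 5% of all genes were lower. That count was 10, with a list median of -0.22, without moderate diet mutant replicate 3. It was 2 without enriched diet wild type replicate 1, 3 without moderate diet wild type replicate 3 or moderate diet mutant replicate 2, and 0, with a median of 0.22, without the 3 sex-discordant libraries.

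The hypoxia-inducible factors bind a short core, ACGTG, and the promoter of Ldha is printed because this gene carries one of the lower glycolytic differences. Promoter windows from RefSeq (GRCm38.p6), 250 bases before to 50 after the start, were on hand for 43 of the 51 genes. The core, on either strand, was in 29 of them (67.4%) and in 5886 of 27025 promoters of all genes (21.8%). Capitals in the Ldha window (chr7:46845554-46845853, plus strand) mark ACGTG and its reverse complement CACGT. Where the 2 overlap they form CACGTG, which is also the E-box read by other factors.
Ldha: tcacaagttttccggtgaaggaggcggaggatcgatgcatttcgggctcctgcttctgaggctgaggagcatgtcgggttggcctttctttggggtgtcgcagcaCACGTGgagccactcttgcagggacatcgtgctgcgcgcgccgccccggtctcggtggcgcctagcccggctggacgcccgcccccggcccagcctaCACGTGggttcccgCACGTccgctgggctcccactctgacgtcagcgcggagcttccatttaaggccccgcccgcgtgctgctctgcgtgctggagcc

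Many stress genes, induced by lack of amino acids or by misfolded protein in the endoplasmic reticulum, rose in mutants on both diets. Of 41 such genes, 23 rose and 0 fell on the moderate diet, and 30 rose and 2 fell on the enriched diet. Of all genes tested, 4.74% rose and 2.82% fell on the moderate diet, and 13.3% rose and 14.9% fell on the enriched diet. The median interaction of the list was 0.19, and 32 of 41 differences were positive. At an unadjusted p under 0.05, 3 were higher and 1 lower, beside 2.34% and 5% of all genes. Asns, asparagine synthetase, lies on chromosome 6 (7675169 to 7693254). It measured 94.2, 93.1, 81.8 and 88.9 CPM in moderate diet wild type, 215, 213, 100.5 and 230 CPM in the mutants, 102, 79.2, 92.1 and 72.2 CPM in enriched diet wild type and 301, 302, 233 and 238 CPM in the mutants. All enriched diet mutants lay above all moderate diet mutants. The difference was 0.55 ± 0.27 (edgeR unadjusted p = 0.0528) and 0.35 without moderate diet mutant replicate 3, the library at 100.5 CPM.

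Of the other members, those with positive differences included Slc7a3, a carrier of basic amino acids (1.12 ± 0.48, edgeR unadjusted p = 0.0324), and the transcription factors Atf5 (0.53 ± 0.22, unadjusted p = 0.0287) and Cebpg (0.28 ± 0.12, unadjusted p = 0.0292). Ddit3, the stress factor also called CHOP, differed by 0.76 ± 0.38 (unadjusted p = 0.0615). Chac1, which degrades glutathione, was 39.4, 54.3, 0.917 and 37.8 CPM in moderate diet mutants and 45.0, 47.3, 29.3 and 45.6 CPM in enriched diet mutants, with a difference of 0.44 ± 1.03. Of the 9 members with a negative difference, the 1 with an unadjusted p under 0.05 was Sdf2l1, a chaperone partner of the endoplasmic reticulum. It passed the genotype threshold on the enriched diet alone, where it fell, and differed by -0.53 ± 0.18 (unadjusted p = 0.00818). Without moderate diet mutant replicate 3 the median of the list was 0.06, with 3 genes higher and 1 lower. Without the 3 sex-discordant libraries it was 0.32 with 6 higher and 1 lower, and without all 4 it was 0.13. The count of higher genes was 0 without enriched diet wild type replicate 4 or enriched diet mutant replicate 2, 1 without moderate diet wild type replicate 2, and 5 to 7 without moderate diet wild type replicate 3, moderate diet mutant replicate 1 or 4 or enriched diet mutant replicate 3.

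By rank, the positive side of the interaction was led by Runx1 and Optn. Sex-linked markers and symbols of predicted or numbered genes were passed over. The 12 remaining genes with the smallest unadjusted p and a mean of at least 1 CPM had differences of 0.32 to 1.63. Their edgeR unadjusted p ran from 0.000228 to 0.00705, all with an adjusted p of 0.645. Being picked by that p, they are described with no further test. Runx1, a transcription factor needed for blood stem cells, lies on chromosome 16 (92601466 to 92826149). It measured 1.25, 2.13, 1.42 and 1.219 CPM in moderate diet wild type, 0.649, 0.615, 0.458 and 0.840 CPM in the mutants, 1.15, 1.13, 1.11 and 1.25 CPM in enriched diet wild type and 1.18, 2.12, 1.64 and 1.29 CPM in the mutants. Only the moderate diet mutants were low, and they overlapped with no other group. Runx1 fell on the moderate diet (-1.23, edgeR adjusted p = 0.00695) and did not pass on the enriched diet (0.40, adjusted p = 0.216), and the difference was 1.63 ± 0.35 (unadjusted p = 0.000228). It was 1.499 without moderate diet mutant replicate 3 and 1.43 without the 3 sex-discordant libraries.

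Optn, the autophagy receptor optineurin on chromosome 2 (5020642 to 5064051), had the second smallest p of these 12 genes. It measured 1.83, 1.501, 2.27 and 1.79 CPM in moderate diet wild type, 2.12, 1.19, 1.55 and 1.8003 CPM in the mutants, 1.53, 1.37, 1.26 and 2.29 CPM in enriched diet wild type and 3.53, 3.98, 2.76 and 3.12 CPM in the mutants. Here only the enriched diet mutants stood apart, above every other library. The difference was 1.20 ± 0.31 (unadjusted p = 0.00132). Further genes were St8sia6 (a sialyltransferase, 1.01), Epha8 (an ephrin receptor, 0.90), Gsn (the actin-severing protein gelsolin, 0.71), Kcnd3 (a potassium channel, 0.68), Adgrb3 (an adhesion receptor, 0.57), Hmha1 (a GTPase-activating protein, 0.53), Ppp1r26 (a phosphatase subunit, 0.44), Osbpl1a (an oxysterol-binding protein, 0.39) and Lars (leucyl-tRNA synthetase, 0.32). Of the 12, 8 rose in mutants on the enriched diet and 0 on the moderate diet, where 2 fell. Of all genes tested, 13.3% rose on the enriched diet and 4.74% on the moderate diet, where 2.82% fell. Genes picked for a positive difference tend to rise on the enriched diet, so this count is a description.

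On the negative side, 11 of the 12 leading genes fell in mutants on the enriched diet and 1 on the moderate diet, where 1 rose. Of all genes tested, 14.9% fell on the enriched diet and 2.82% on the moderate diet, where 4.74% rose. Being picked for a negative difference, the 12 tend to fall on the enriched diet, so the count only describes them. Several of them are known from blood vessels. Icam2, an adhesion molecule of endothelium and leukocytes, measured 8.79, 7.70, 8.13 and 8.73 CPM in moderate diet wild type and 11.96, 12.2, 10.5 and 10.2 CPM in the mutants, so it rose there (0.42, edgeR adjusted p = 0.0109). On the enriched diet it measured 11.0, 9.49, 10.2 and 9.85 CPM in wild type and 9.88, 8.57, 9.28 and 9.15 CPM in mutants, which overlapped. The difference was -0.56 ± 0.14 (unadjusted p = 0.000647). Rasip1, which endothelial cells need to form a lumen, differed by -0.55 ± 0.15, and Gja4, the connexin of arterial endothelium, by -0.62 ± 0.18. Slc25a29, a mitochondrial carrier of basic amino acids, had the largest size of the 12 (-0.81 ± 0.20): enriched diet wild type held 8.34, 7.92, 8.62 and 7.69 CPM and the mutants 4.15, 3.55, 3.55 and 3.83 CPM, while the moderate diet groups overlapped. Further genes of the 12 were Polr1d (a subunit of RNA polymerases I and III, -0.57), Znhit1 (a chromatin remodelling subunit, -0.53), Cdk2ap1 (a cell cycle regulator, -0.49), Dnlz (a mitochondrial chaperone partner, -0.47), Commd9 (an endosomal protein, -0.46), Trim7 (a ubiquitin ligase, -0.43) and Hmgb3 (a chromatin protein, -0.34). The 24 leading genes were picked by their p in these same libraries, so refits that leave libraries out are no test of them. In each of the 24 leading genes the unadjusted p stayed under 0.05 in all 16 fits that left out 1 library. Without the 3 sex-discordant libraries 22 of the 24 kept it, and Gsn (unadjusted p = 0.0515) and Trim7 (unadjusted p = 0.0598) did not. Runx1, Optn and Gja4 kept it in all 29 settings. Leaving out those 3 libraries and moderate diet mutant replicate 3 leaves 1 moderate diet mutant, so sizes alone are given for that fit. Rasip1 was then at -0.25, Dnlz at -0.26 and Trim7 at -0.08.

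**Figure D2:**
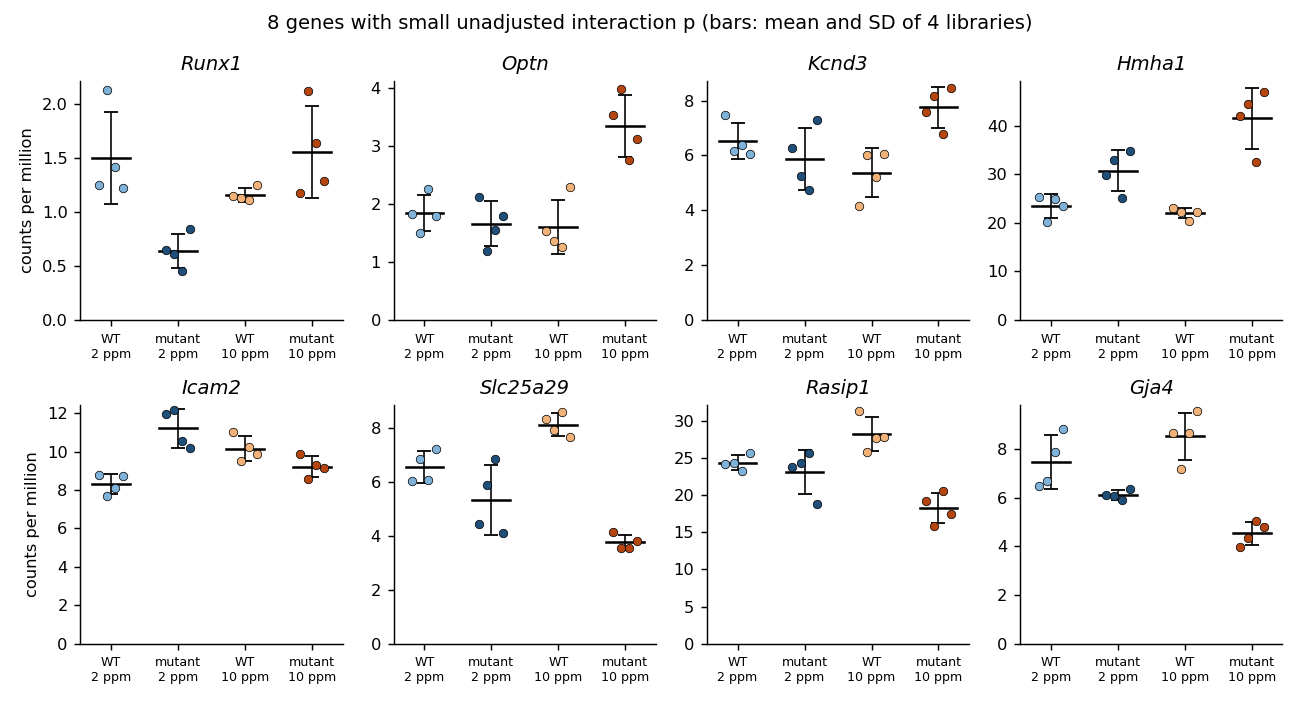
CPM (y axis, from 0) of 8 leading genes in each of the 16 libraries, as points by genotype and diet, with the mean and SD of the 4 libraries of a group. Runx1 is low in moderate diet mutants (0.458 to 0.840 CPM), Optn is high in enriched diet mutants (2.76 to 3.98 CPM), and Slc25a29 is low in enriched diet mutants (3.55 to 4.15 CPM).

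The gene lists were described by counts and medians, beside those of all 14514 genes, whose median interaction was -0.00133. Of 38 lists, 21 had a negative and 17 a positive median, and 0 genes of any list passed the interaction threshold.

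**Figure D3:**
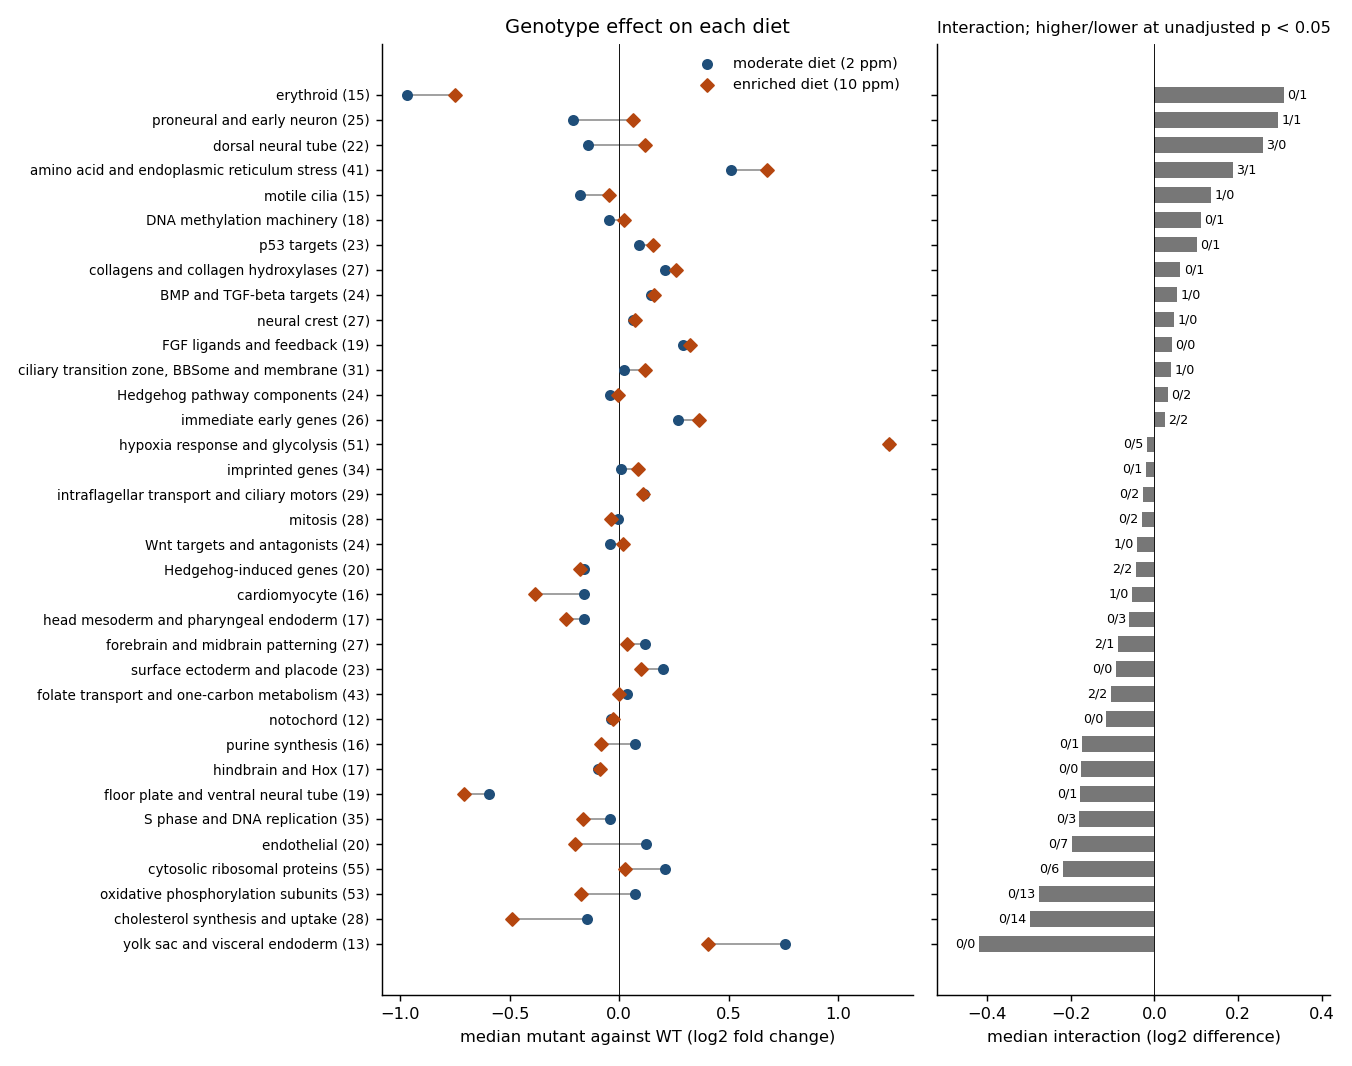
Left, median log2 fold change of mutant against wild type on each diet for each list of at least 10 tested genes (number tested in brackets); right, the median interaction of the list, with the genes higher and lower at an unadjusted p under 0.05. Cholesterol genes (0 higher, 14 lower) and oxidative phosphorylation genes (0 higher, 13 lower) had the most lower genes, and hypoxia genes sat at the same median on both diets.

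Cholesterol synthesis and uptake genes fell in mutants in larger number on the enriched diet, although no gene among them passed the interaction threshold. Of 28 genes, 2 fell and 0 rose on the moderate diet, and 21 fell and 1 rose on the enriched diet, where the share of all genes that fell was 2.82% and 14.9%. A larger count on the enriched diet was thus common to all genes. The median log2 fold changes were -0.15 and -0.49. The interaction was negative in 26 of 28 genes, with a median of -0.30, and 14 of 28 were lower and 0 higher at an unadjusted p under 0.05, where 5% of all genes were lower. Those described here, 12 of the 14, run along the pathway. Mvk (-0.37), Pmvk (-0.30), Mvd (-0.40), Idi1 (-0.49) and Fdps (-0.58) make the isoprenoid units. Fdft1 (-0.41) and Sqle (-0.30) make squalene and its epoxide. Cyp51 (-0.28), Msmo1 (-0.49), Nsdhl (-0.48), Ebp (-0.30) and Dhcr7 (-0.39) work on the sterol ring. Srebf2, the transcription factor of this pathway, differed by -0.17 ± 0.11, and Srebf1 by 0.06 ± 0.13.

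Single libraries set how many of these genes had a small p. The count of 14 was 4 without moderate diet wild type replicate 4. It was 6 without moderate diet wild type replicate 1, moderate diet mutant replicate 3, enriched diet wild type replicate 1, or enriched diet mutant replicate 2 or 3. It was 7 without moderate diet mutant replicate 1 or enriched diet wild type replicate 4. The list median stayed between -0.38 and -0.23 in all 16 of these fits. Without the 3 sex-discordant libraries it was -0.30 with 6 genes lower, and without those and moderate diet mutant replicate 3 it was -0.24. The mean log2 CPM of the list, centred on the 16 libraries, was 0.08, 0.12, 0.31 and -0.01 in moderate diet wild type and 0.05, -0.18, 0.04 and -0.12 in the mutants, which overlapped. It was 0.23, 0.11, 0.10 and 0.37 in enriched diet wild type and -0.19, -0.41, -0.35 and -0.14 in the mutants, which did not.

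**Figure D4:**
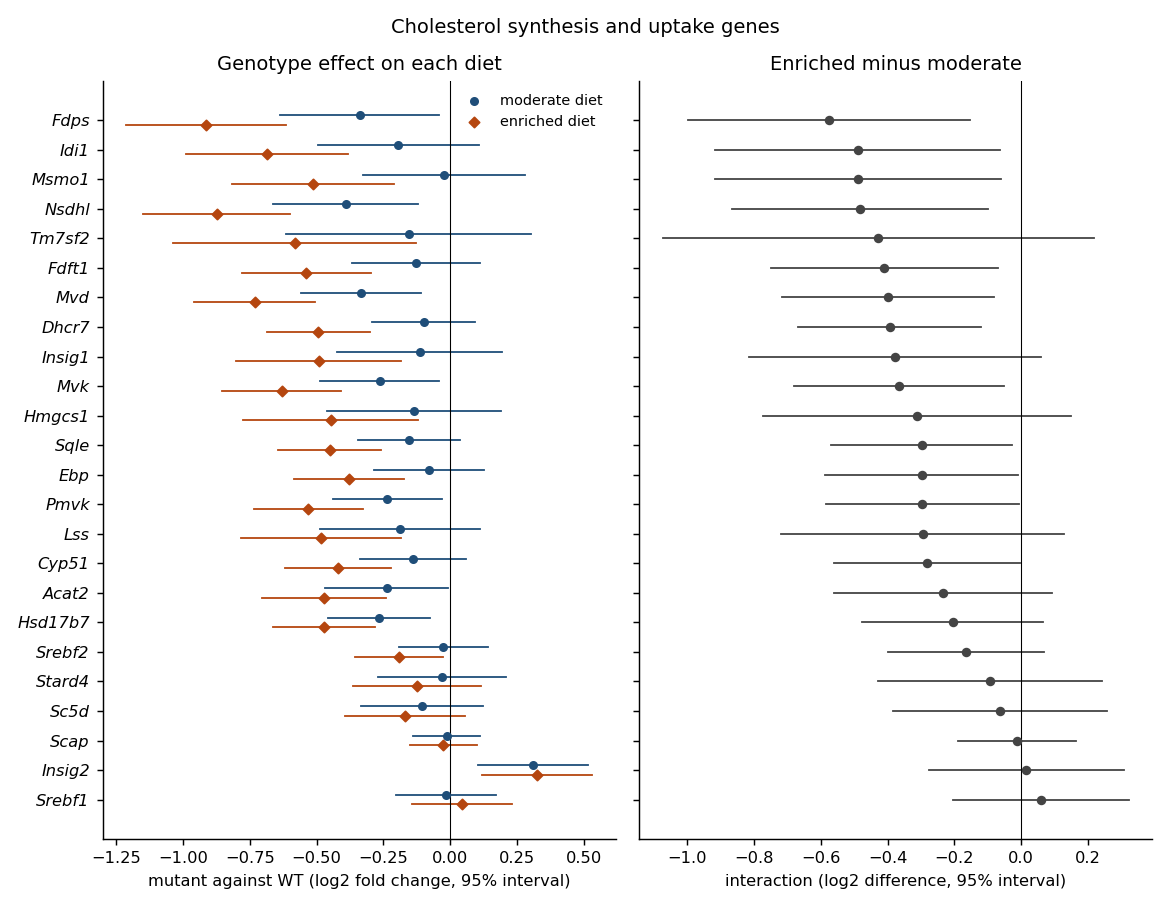
Log2 fold change of mutant against wild type on each diet (left) and the interaction (right) for 24 of the 28 cholesterol genes, each with its 95% interval and sorted by the interaction. Most enriched diet points lie left of the moderate diet points of the same gene, and 12 intervals of the interaction lie wholly below 0.

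Promoters of cholesterol genes are known to be read by the sterol regulated factors together with the CCAAT-binding factor NF-Y, so 3 of them are printed to show these motifs in genes of the list. Windows from RefSeq (GRCm38.p6) were on hand for 20 of the 28 genes. CCAAT, or ATTGG on the other strand, was in 18 of 20 (90%) and in 11096 of 27025 promoters of all genes (41.1%). The sterol regulatory element TCACNCCAC, on either strand, was in 1 of 20 (5%), Hmgcs1, and in 388 of 27025 (1.44%). Capitals mark CCAAT or ATTGG in all 3 windows and, in Hmgcs1 alone, the sterol element, which overlaps none of them. Hmgcs1 (chr13:119690101-119690400, plus strand) makes the precursor of mevalonate, Mvk (chr5:114444019-114444318, plus strand) is mevalonate kinase and Nsdhl (chrX:72918271-72918570, plus strand) removes methyl groups from the sterol ring.
Hmgcs1: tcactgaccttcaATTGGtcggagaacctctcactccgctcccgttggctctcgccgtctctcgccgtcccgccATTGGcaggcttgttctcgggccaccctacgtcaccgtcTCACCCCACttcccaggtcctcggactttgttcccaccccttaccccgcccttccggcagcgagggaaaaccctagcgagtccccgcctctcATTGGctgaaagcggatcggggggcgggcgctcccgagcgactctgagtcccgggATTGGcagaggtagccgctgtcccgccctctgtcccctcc
Mvk: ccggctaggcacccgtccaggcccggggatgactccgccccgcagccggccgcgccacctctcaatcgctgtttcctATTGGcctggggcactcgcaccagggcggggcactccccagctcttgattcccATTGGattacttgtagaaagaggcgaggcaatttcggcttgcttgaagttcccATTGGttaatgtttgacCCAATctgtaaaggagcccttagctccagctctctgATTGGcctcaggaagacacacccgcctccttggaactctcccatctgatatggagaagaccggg
Nsdhl: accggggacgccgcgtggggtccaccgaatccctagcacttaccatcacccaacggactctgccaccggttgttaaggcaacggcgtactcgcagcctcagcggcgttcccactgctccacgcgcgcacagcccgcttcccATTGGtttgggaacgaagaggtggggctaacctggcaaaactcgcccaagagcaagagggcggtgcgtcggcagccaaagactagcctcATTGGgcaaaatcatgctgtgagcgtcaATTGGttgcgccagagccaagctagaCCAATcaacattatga
The windows hold 5, 5 and 4 matches. The interaction was -0.31 ± 0.22 (edgeR unadjusted p = 0.172) in Hmgcs1, -0.37 ± 0.15 (unadjusted p = 0.0247) in Mvk and -0.48 ± 0.18 (unadjusted p = 0.0164) in Nsdhl. A match says only that the letters are there.

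Subunits of oxidative phosphorylation and ribosomal proteins had mostly negative differences as well. The interaction was negative in 52 of 53 oxidative phosphorylation genes, with a median of -0.28 and 13 lower and 0 higher at an unadjusted p under 0.05. At that level, 5% of all genes were lower and 2.34% higher. Ndufa1, a complex I subunit, measured 34.5, 32.6, 31.7 and 32.4 CPM in moderate diet wild type, 31.6, 42.7, 34.0 and 26.1 CPM in the mutants, 39.7, 34.4, 38.5 and 33.0 CPM in enriched diet wild type and 29.1, 21.4, 31.6 and 19.6 CPM in the mutants. The moderate groups overlapped and the enriched ones did not, and the difference was -0.55 ± 0.21 (edgeR unadjusted p = 0.0166). Of 55 cytosolic ribosomal protein genes 49 were negative, with a median of -0.22 and 6 lower, among them Rps16 (-0.49 ± 0.19) and Rpl19 (-0.32 ± 0.13). The 6 were 0 without moderate diet mutant replicate 2 or enriched diet wild type replicate 3, 1 without moderate diet wild type replicate 2, 2 without moderate diet wild type replicate 3 or enriched diet mutant replicate 4, and 3 without moderate diet wild type replicate 1, moderate diet mutant replicate 1 or enriched diet wild type replicate 1. Without moderate diet mutant replicate 4 it was 9. Without the 3 sex-discordant libraries the count was 0 with a median of -0.09. Without those and moderate diet mutant replicate 3 the median was -0.07. Ribosomal protein genes have many near-identical pseudogenes that can take their reads, so their levels are uncertain. These are short genes: the longest transcripts had a median of 1298 bases in the oxidative phosphorylation list and 1120 bases in the ribosomal list, against 3407 bases over 13983 genes with a known length.

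Transcript length moved with the interaction across all genes. The median interaction was -0.15, -0.07, -0.02, 0.04 and 0.16 over 5 equal bins of genes from shortest to longest. In the shortest bin 12.2% of genes were lower and 0.536% higher at an unadjusted p under 0.05, and in the longest bin 0.858% were lower and 5.58% higher. The Spearman correlation of length with the interaction was 0.391 over 13983 genes (96.3% of those tested), and that of GC content was -0.116. The genes share the same 16 libraries, so this is a description. The short minus long difference in centred log2 CPM was 0.40 and 0.29 in enriched diet wild type replicates 1 and 3, 0.24 in moderate diet mutant replicate 2, -0.20 in moderate diet mutant replicate 4 and -0.29 in enriched diet mutant replicate 4, and between -0.14 and 0.06 in the other 11.

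With an offset for the length and GC content of each gene in each library, the unadjusted count was 868 genes (5.98%) and 0 passed the threshold. Under that offset, the oxidative phosphorylation median was -0.17 with 4 genes lower, and the ribosomal median -0.09 with 0 lower. The cholesterol median was -0.32 with 14 lower, and the longest transcripts of that list had a median of 3492 bases. In fits without the offset that left out 1 library, the cholesterol count ran from 4 to 15. The 13 lower oxidative phosphorylation genes also depended on single libraries. There were 25 without moderate diet mutant replicate 4, 20 without enriched diet wild type replicate 4 and 22 without enriched diet mutant replicate 1. There were 1 to 3 without moderate diet wild type replicate 1 or 3, moderate diet mutant replicate 2, enriched diet wild type replicate 1 or 3 or enriched diet mutant replicate 4, 6 without enriched diet mutant replicate 2, 8 without moderate diet mutant replicate 3, and 0 without the 3 sex-discordant libraries. What part of the interaction the length trend makes up was not tested further.

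**Figure D5:**
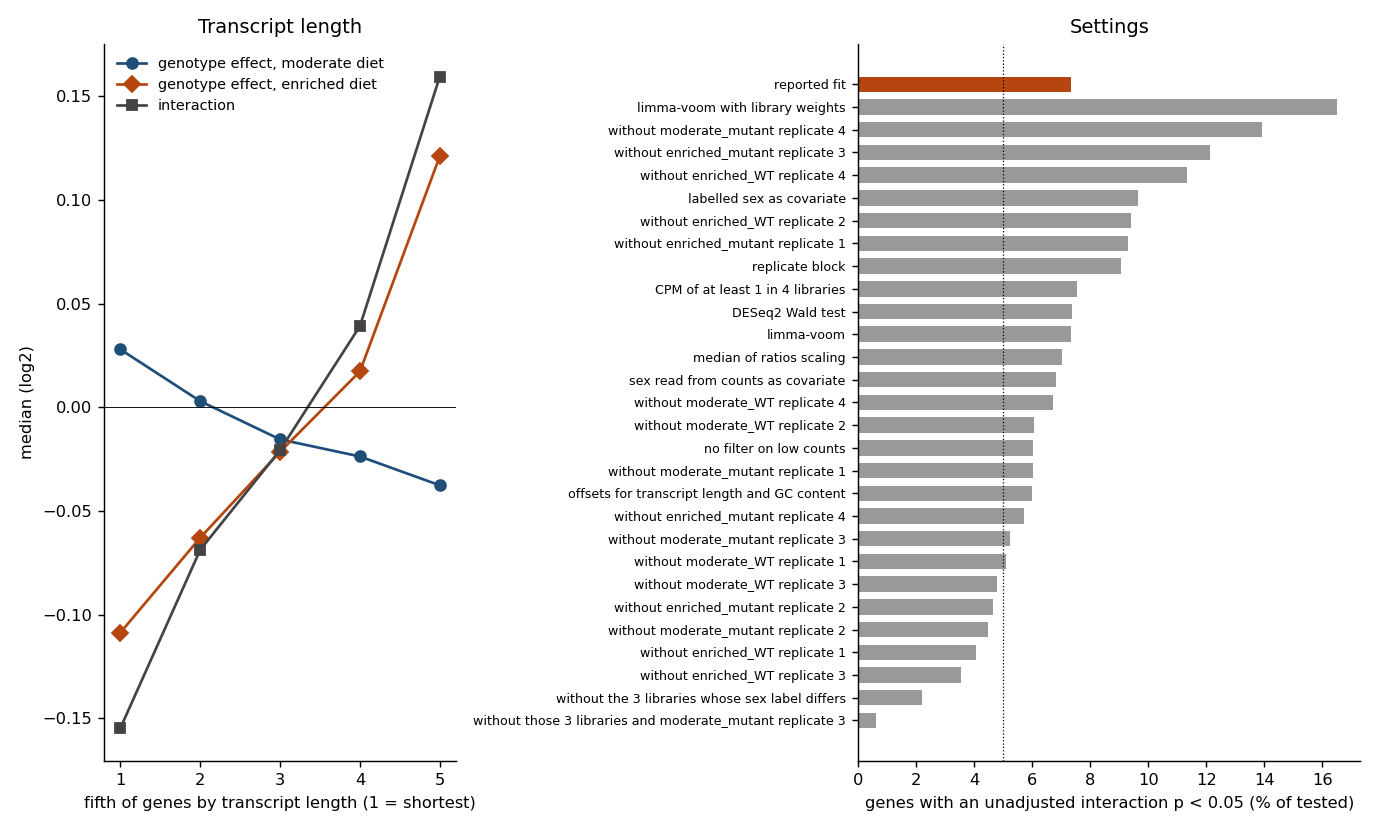
Left, the median genotype effect on each diet and the median interaction (log2) in 5 equal groups of genes from shortest to longest transcript. Right, the share of genes with an unadjusted interaction p under 0.05 in the reported fit (7.33%) and in each other setting, with a dotted line at 5%. The share was largest, 16.5%, with library weights. It was smallest without 4 libraries, a fit that leaves moderate diet mutant replicate 4 alone in its group.

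Markers of other cell types were counted in the same way, since in whole tissue fewer cells of a type and less RNA per cell cannot be told apart. Endothelial genes were among the lists with several lower genes. Of 20, 7 were lower and 0 higher at an unadjusted p under 0.05, beside 5% and 2.34% of all genes. Of the 20, 16 were negative and the median was -0.20. On the moderate diet 4 rose and 0 fell in mutants, beside 4.74% and 2.82% of all genes. On the enriched diet 4 rose and 5 fell, beside 13.3% of all genes that rose and 14.9% that fell on that diet. Sox18, an endothelial transcription factor, measured 20.1, 19.3, 21.2 and 22.8 CPM in moderate diet wild type, 26.2, 27.9, 21.2 and 20.2 CPM in the mutants, 25.1, 22.8, 25.9 and 24.3 CPM in enriched diet wild type and 19.7, 18.6, 22.2 and 14.8 CPM in the mutants. Enriched diet mutants lay below enriched diet wild type in every library, and the moderate groups overlapped. The difference was -0.58 ± 0.17 (edgeR unadjusted p = 0.00370). Plvap (-0.40 ± 0.12), Eng (-0.38 ± 0.12), Egfl7 (-0.47 ± 0.17), Tek (-0.50 ± 0.19), Cldn5 (-0.58 ± 0.24) and Emcn (-0.25 ± 0.12) were the other 6. The count stayed between 5 and 7 in the 16 fits without 1 library. It was 7 with the length and GC offset and 3 without the 3 sex-discordant libraries. The summed level of the list was 639 to 741 CPM in moderate diet wild type, 730 to 823 CPM in the mutants, 689 to 770 CPM in enriched diet wild type and 679 to 737 CPM in the mutants. The part of endothelial markers in the values of Icam2, Rasip1 and Gja4 was not tested.

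Macrophage and leukocyte genes went the other way, at levels near the floor. Of 18 such markers 7 passed the filter on low counts, and defining ones such as Ptprc, Adgre1 and the C1q genes did not. All 7 differences were positive, with a median of 0.99 and 3 higher at an unadjusted p under 0.05, where 2.34% of all genes were higher. Csf1r, the macrophage growth factor receptor, measured 1.20, 1.65, 0.331 and 2.46 CPM in moderate diet wild type, 0.273, 0.0410, 0.229 and 0.0800 CPM in the mutants, 0.958, 0.281, 0.906 and 1.43 CPM in enriched diet wild type and 1.38, 1.12, 1.33 and 0.407 CPM in the mutants. As with Runx1, the moderate diet mutants were low and overlapped with no other group. The difference was 3.33 ± 0.83 (edgeR unadjusted p = 0.000894). Mrc1, the mannose receptor, differed by 0.99 ± 0.40 and Cx3cr1, a chemokine receptor, by 2.51 ± 1.16. A count of 1 replaced the 3 without moderate diet wild type replicate 4, without enriched diet mutant replicate 1 or without the 3 sex-discordant libraries. The summed level of the 7 genes was 8.60 to 16.5 CPM in moderate diet wild type, 4.71 to 7.28 CPM in the mutants, 7.08 to 13.2 CPM in enriched diet wild type and 6.74 to 10.44 CPM in the mutants. Erythroid genes varied widely within groups (summed 2538 to 6663, 1285 to 3470, 1574 to 3914 and 749 to 3641 CPM in the same order), with a median of 0.31 that was 0.88 without moderate diet mutant replicate 3 and -0.32 without the 3 sex-discordant libraries. Lmo2, a blood and endothelial cofactor, was the 1 lower gene of 15 (-0.30 ± 0.12, edgeR unadjusted p = 0.0269, or 0.0766 without the 3 sex-discordant libraries). The part of blood cells in the interaction of Runx1 was not tested.

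A marker of the maternal decidua and the sum of the yolk sac markers were high in 1 library each. Of 19 decidua and placenta markers 5 were tested. Prl8a2, a hormone of the maternal decidua, measured 189 CPM in enriched diet mutant replicate 3 and at most 3.46 CPM in each of the other 15, which gives the fitted difference of 11.6 ± 3.8 (edgeR unadjusted p = 0.00723) that stands alone in the plot of genotype effects. Prl3b1 of the same list measured 0.113, 0.0865, 0.371 and 0.102 CPM in enriched diet mutants, below the 0.915 to 1.63 CPM of enriched diet wild type. The summed level of 13 yolk sac and visceral endoderm genes was 152 CPM in enriched diet mutant replicate 4 and 20.8 to 55.2 CPM elsewhere.

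Genes of the dorsal neural tube had mostly positive differences. Of 22, 17 were positive with a median of 0.26. At an unadjusted p under 0.05, 3 were higher and 0 lower, beside 2.34% and 5% of all genes. Among the 3 were Pax3, a paired box gene of dorsal progenitors and neural crest, and Zic5. Pax3 measured 46.6, 42.9, 43.0 and 36.8 CPM in moderate diet wild type, 35.0, 31.6, 31.0 and 41.8 CPM in the mutants, 35.0, 38.7, 36.6 and 38.0 CPM in enriched diet wild type and 43.1, 35.7, 35.6 and 40.7 CPM in the mutants. The groups overlapped on both diets, and the difference was 0.35 ± 0.14 (edgeR unadjusted p = 0.0255, or 0.1196 without the 3 sex-discordant libraries). The count of 3 was 5 or 6 without moderate diet mutant replicate 4 or enriched diet wild type replicate 3. It was also 5 or 6 without enriched diet mutant replicate 3 or 4, and 1 without the 3 sex-discordant libraries. The list median was 0.09 without those 3 and moderate diet mutant replicate 3. In the forebrain and midbrain list of 27 genes, 20 differences were negative and 7 positive, with a median of -0.09. Wnt8b, a Wnt ligand of the forebrain, had the smallest interaction p of that list. It measured 38.4, 44.5, 41.7 and 38.6 CPM in moderate diet wild type and 19.3, 20.003, 15.7 and 19.04 CPM in the mutants, then 32.4, 38.7, 40.0 and 33.7 CPM in enriched diet wild type and 20.3, 20.9, 22.8 and 20.9 CPM in the mutants. It fell on both diets, by 1.14 and by 0.77, a difference of 0.37 ± 0.13 (unadjusted p = 0.0119).

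Folate and one-carbon genes, the direct metabolic neighbours of the diet, had differences of both signs. Of 43, 14 were positive and 29 negative with a median of -0.10, and 2 were higher and 2 lower at an unadjusted p under 0.05, beside 2.34% and 5% of all genes. The median stayed between -0.14 and -0.03 in the 16 fits without 1 library. It was 0.01 without the 3 sex-discordant libraries and moderate diet mutant replicate 3. Ahcyl1, related to the enzyme that hydrolyses S-adenosylhomocysteine, measured 228, 232, 216 and 225 CPM in moderate diet wild type, 266, 273, 244 and 267 CPM in the mutants, 206, 214, 200 and 217 CPM in enriched diet wild type and 274, 298, 282 and 277 CPM in the mutants. Mutants lay above wild type in every library on both diets, and the difference was 0.21 ± 0.08 (edgeR unadjusted p = 0.0168). Aldh1l2, the mitochondrial formyltetrahydrofolate dehydrogenase, rose on both diets (1.66 and 2.93), and its mutants held 18.2, 9.67, 3.24 and 18.8 CPM on the moderate and 24.1, 33.0, 17.9 and 32.0 CPM on the enriched diet. The difference was 1.28 ± 0.54 (unadjusted p = 0.0296). The folate carrier Slc46a1 (-0.44 ± 0.18) and thymidylate synthase Tyms (-0.34 ± 0.15) were the 2 lower genes. Without 1 library the lower count ran from 0 to 6 and the higher count from 1 to 4, with 5 lower without moderate diet mutant replicate 4 or enriched diet wild type replicate 4 and 6 without enriched diet mutant replicate 3. The 16 purine synthesis genes had a median of -0.17 with 1 lower, the salvage enzyme Aprt (-0.45 ± 0.19). That count was 6 without enriched diet mutant replicate 3, 2 without moderate diet wild type replicate 4, moderate diet mutant replicate 4 or enriched diet wild type replicate 4, and 0 without moderate diet mutant replicate 2, enriched diet wild type replicate 1 or 3 or enriched diet mutant replicate 4. Without the 3 sex-discordant libraries the purine list had 0 lower as well. Its median was -0.25 to -0.09 in the fits without 1 library and 0.00386 without those 3 and moderate diet mutant replicate 3. The 18 genes of the DNA methylation machinery had a median of 0.11 with 1 lower, Mbd3 (-0.21 ± 0.10). The 34 imprinted genes had one of -0.02 with 1 lower, Nnat (-0.33 ± 0.16). Without the 3 sex-discordant libraries the edgeR unadjusted p was 0.257 for Mbd3 and 0.166 for Nnat.

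Cilium genes had few small p-values, near the shares over all genes (5% lower and 2.34% higher at an unadjusted p under 0.05). Of 29 genes of intraflagellar transport and its motors, 2 were lower and 0 higher at an unadjusted p under 0.05, with a median of -0.03. These were Ift20 (-0.38 ± 0.17) and Ift22 (-0.30 ± 0.14), both subunits of the complex that also holds IFT88. Without moderate diet mutant replicate 3 the list had 0 lower, and without the 3 sex-discordant libraries 1 lower and 1 higher. Among 31 transition zone, BBSome and ciliary membrane genes 1 was higher, Cc2d2a (0.45 ± 0.19), with a median of 0.04. Without the 3 sex-discordant libraries 0 of the 31 were higher. Of 35 genes of S phase 32 were negative with a median of -0.18, and 3 were lower, led by E2f1 (-0.24 ± 0.09), a count that was 14 without enriched diet mutant replicate 3, 11 without moderate diet mutant replicate 4, 8 without enriched diet wild type replicate 4 and 0 without enriched diet wild type replicate 3. Without the 3 sex-discordant libraries the S phase list had 0 lower. The 28 mitosis genes had a median of -0.03 with 2 lower. That list had 0 lower and 2 higher without moderate diet mutant replicate 3, and 0 in either direction without the 3 sex-discordant libraries. Neural crest genes (27, median 0.05), BMP and TGF-beta targets (24, 0.06), Wnt targets (24, -0.04), FGF genes (19, 0.04) and collagens (27, 0.06) had 0 or 1 gene in either direction.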

How the data were processed

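RNA of 16 libraries was sequenced, and the authors deposited whole-number read counts per gene, made with TopHat2 2.1.1 and HTSeq 0.9.1 on mm10 per the submitters' processing notes; the strand setting and annotation release are not given in the sources used here. Rows of reads outside genes (13.7% to 17.0% of counts) or ambiguous (1.20% to 1.39%) were left out. From these counts, the 14514 of 24421 genes that reached 10 counts in 4 or more libraries were fitted with edgeR 4.0.16 in R 4.3.3: TMM scaling, 1 mean per group, quasi-likelihood tests and Benjamini-Hochberg adjustment over all genes at 0.05. Sex was left out of the model because labels and counts disagreed. Standard errors and 95% intervals were derived from the test's p. CPM are TMM-scaled. Alternatives used DESeq2 1.42.0 and limma 3.58.1, and the fit was tested on simulated data. Lengths came from GENCODE vM21. Named genes were a panel of 30, the 12 smallest p per direction with a mean of at least 1 CPM, and the 2 smallest p of each of 38 lists. Sex-linked markers and symbols of predicted or numbered genes were passed over in choosing the 12. Other members of lists were named after their values were seen. The members and lists were chosen with earlier results of these data known. No pair of libraries agreed within sampling noise. The kit keeps no strand, so overlapping genes cannot be told apart. Some genes covered by these rules are not reported here.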

Additional observations from a re-analysis of the deposited data

Results flagged for a closer look

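In 224 groups of 4 libraries, 12 had a highest or lowest library far from the other 3, and chance flags about 1 group in 20. Of these, 5 were in moderate diet mutant replicate 3: Dkk2 (3.151 CPM) was high, and Adm (4.841 CPM), Trib3 (2.521 CPM), Asns (100.5 CPM) and Vldlr (21.03 CPM) were low. Gli1 was high in replicate 4 of the enriched diet wild type (39.57 CPM) and of the enriched diet mutants (23.04 CPM). Ift88 was low in moderate diet wild type replicate 2 (9.295 CPM), Nkx2-2 high in moderate diet mutant replicate 2 (0.6149 CPM), Aldh1a1 low in enriched diet wild type replicate 4 (2.227 CPM) and Chac1 low in enriched diet mutant replicate 3 (29.33 CPM). The total count of moderate diet wild type replicate 4 (3.974e+07) also stood apart from its group.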

How the results depend on the processing

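The interaction called 0 genes in all 29 alternatives, with a smallest adjusted p between 0.2176 and 1. The moderate diet genotype effect gave 4479 genes with library weights, 1813 at an adjusted p of 0.1, 116 without the 3 sex-discordant libraries, 378 without those and moderate diet mutant replicate 3, and 606 to 2083 without 1 library. The enriched one gave 2664 to 4473 without 1 library. The diet effect in wild type gave 1 gene by DESeq2, and that in mutants 8 by DESeq2, 1 with library weights and 0 to 2 without 1 library. The correlation of the genotype effects was 0.322 with no filter, 0.807 with a CPM filter and 0.6381 without moderate diet mutant replicate 4. Whether same-numbered libraries pair was not settled. Their 24 pairs had a median correlation of 0.031, 8 over 0.1 and a highest of 0.505. The 72 other pairs had a median of -0.042 and a highest of 0.404. Of 16 libraries, 6 correlated best with their own number. The replicate block gave 0 calls and 1313 unadjusted p under 0.05 for the interaction, and 1269 and 4404 genotype calls. Of 124 named genes 100 kept their sign in every setting. Sign changes were Ppp1r3c (0.0006613 by median of ratios, 0.3914 by limma-voom, 0.02658 with weights, 0.03148 and 0.03394 with labelled and counted sex, 0.0635 with the replicate block, 0.4474 without the 3 libraries, 0.007054 with length and GC offsets), Adm (0.2928 by limma-voom, 0.00159 with labelled sex, 0.4591 without the 3 libraries, 0.0256 with offsets), Ddit4 (0.04418 and 0.3172 by limma-voom and without the 3), Ndufa4l2 (0.1155 without the 3), Ptch1 (-0.1031 with offsets) and Kdm5d (-0.9174 by limma-voom, -1.683 with weights, -0.02518 with labelled sex). With weights they were Uty -0.0989, Foxa2 0.1579, Nkx2-9 0.7198, Gli1 -0.1262 and Foxl1 0.03053. Without the 4 libraries they were Aldh1a1 0.4845, Dkk2 0.4084, Bhlhe40 -0.08487, Bhlhe41 -0.03323, Stc1 -0.263, Stc2 -0.2898, Vldlr -0.1291, Aldh1a3 -0.01085, Spink1 1.575, Prl3b1 0.7443 and Sox3 0.09136. The length and GC offset was chosen after seeing the data. The cause of these changes was not tested. With libraries left out, singly or as those 4, the differences ran over these ranges: Ift88 -0.1405 to 0.627, Foxa2 -0.4878 to 0.0436, Gli1 -0.2771 to 0.417, Foxl1 -0.6356 to 0.008067, Aldh1a1 -0.6083 to 0.4845, Dkk2 -1.431 to 0.4084, Adm -0.4421 to 0.07169, Bhlhe40 -0.08487 to 0.6877, Bhlhe41 -0.1176 to 0.4356, Ddit4 -0.5044 to 0.05891, Ndufa4l2 -0.612 to 0.0004991, Stc1 -0.263 to 0.3644, Stc2 -0.2898 to 0.2785, Ppp1r3c -0.3608 to 0.2622, Vldlr -0.1291 to 0.4946, Aldh1a3 -0.01085 to 0.3031, Spink1 -2.219 to 1.575, Apob -1.223 to 3.453, Prl3b1 -1.921 to 0.7443, Sox3 -0.5108 to 0.09136 and Uty -0.1189 to 9.745.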
